A study of Mus musculus with 16 samples.

Results

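The genes described here are Gpi1, Aldoa, Tpi1, Gapdh, Pgk1, Pgam2, Eno3, Ldha and Ldhb, 9 symbols of the 23970 in the expression table, taken by name. They encode glucose phosphate isomerase, the glycolytic enzymes from aldolase to enolase, and the subunits of lactate dehydrogenase. Phosphofructokinase, the step between the isomerase and aldolase, is not among them. All 9 had 1 entry each, none was listed at 0 in any library, and all 9 were among the 11256 genes tested, those whose mean reached 0.5 FPKM (fragments mapped to a gene, scaled for its length and for library size). The libraries came from quadriceps muscle of C57BL/6NTac mice aged 16 weeks, 4 in each of 4 groups, and the study's methods give all mice as male. CON-pre mice ate a control diet and were sampled at rest, HFD-pre mice ate a high-fat diet and were sampled at rest, and CON-post and HFD-post mice ate the same diets and were sampled 3 h after a treadmill test to exhaustion. By the methods, resting mice had the same introduction to the treadmill and the same time of fasting as exercised mice, which had water but no food after the test. Rest and exercise were compared between different animals, and all 4 groups share the treadmill introduction, the fast and the anaesthesia. The muscle was taken whole, so a lower value can come from fewer cells or fibres of a type or from less RNA per cell, and these cannot be told apart.

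Lower glycolysis turns fructose phosphates into pyruvate in the cytosol. Aldolase splits the sugar, triose phosphate isomerase interconverts the products, glyceraldehyde phosphate dehydrogenase makes NADH, and phosphoglycerate kinase gives the first ATP of the payoff phase before phosphoglycerate mutase and enolase prepare the substrate of pyruvate kinase. Lactate dehydrogenase reduces pyruvate to lactate and returns NAD+ to the dehydrogenase step. It is a tetramer of A subunits, which prevail in fast glycolytic fibres, and B subunits, which prevail in oxidative fibres and heart. Pgam2 and Eno3 are the muscle forms of mutase and enolase.

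The member called for exercise and the member called for diet were different genes. Pgam2 was lower in all 8 exercised libraries than in all 8 resting libraries and fell to 0.800 of its resting level when the diets were averaged, a call that held under all 28 alternatives run. Among these, summing Gapdh with a near copy left the values of Pgam2 as they were. On the high-fat diet 6 genes of the chain, Gpi1, Aldoa, Tpi1, Gapdh, Pgk1 and Eno3, had averaged values between 10.5% and 24.2% lower, each at an unadjusted p under 0.05. Those of Aldoa and Eno3 shrank to log2 differences of -0.064 and -0.079 under quantile normalization. After adjustment only Gapdh passed the threshold, and that call was lost under most alternatives. Over all 28 its log2 difference lay between -0.29 and -0.22. Ldha, Ldhb and Pgam2 passed no test of diet. No member differed between diets in its response to exercise by the test of the interaction.

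The 16 libraries summed to between 283575 and 329282 FPKM. At rest the diets did not overlap in this sum, with CON-pre between 305490 and 327559 and HFD-pre between 294867 and 303652, and its part in the diet differences was tested only through the scaling alternatives. In each library the members together took between 3.63% and 4.43% of that sum. Relative depth, read from the low values of the table, ran from 0.702 to 1.13 of that of CON-pre replicate 1, and pairwise correlations of libraries across genes lay between 0.966 and 0.984. Skeletal muscle markers (Ckm, Acta1, Des, Myh4, Mb and Tnnt3) summed to between 44140 and 58230 FPKM, while 5 heart markers summed to between 1.77 and 6.54 FPKM with 1 of them at 0 in every library.

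The members spanned a wide range of levels, as seen in the plot of levels by group. Aldoa, the muscle aldolase, had the highest mean of the 16 libraries at 7080 FPKM and ranked 10 among all genes of the table. Eno3 followed at 2176 FPKM, rank 15, and Pgam2 at 1249 FPKM, rank 21. Each was above the next in all 16 libraries with no overlap of ranges. Tpi1 at 701 FPKM and Ldha at 699 FPKM could not be ordered, since Tpi1 was the higher in 8 of 16 libraries. Gapdh at 110.2 FPKM and Gpi1 at 104 FPKM came next, and Gapdh was the higher in 12 of 16 libraries. Ldhb had 50.2 FPKM and Pgk1 22.0 FPKM, and although Ldhb was the higher in all 16 libraries, the ranges of both genes overlapped. Enzymes of the same linear pathway were thus listed at very different levels, but the values of Gapdh, Pgk1, Ldha and Ldhb carry an uncertainty, from near copies of these genes elsewhere in the genome, that is described with each. The spread within groups was smallest for Tpi1, with a coefficient of variation of 6.12%, and largest for Pgk1 at 20.5% and Ldhb at 24.8%. The median over the 1765 genes whose mean reached 20 FPKM was 8.79%.

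**Figure D1:**
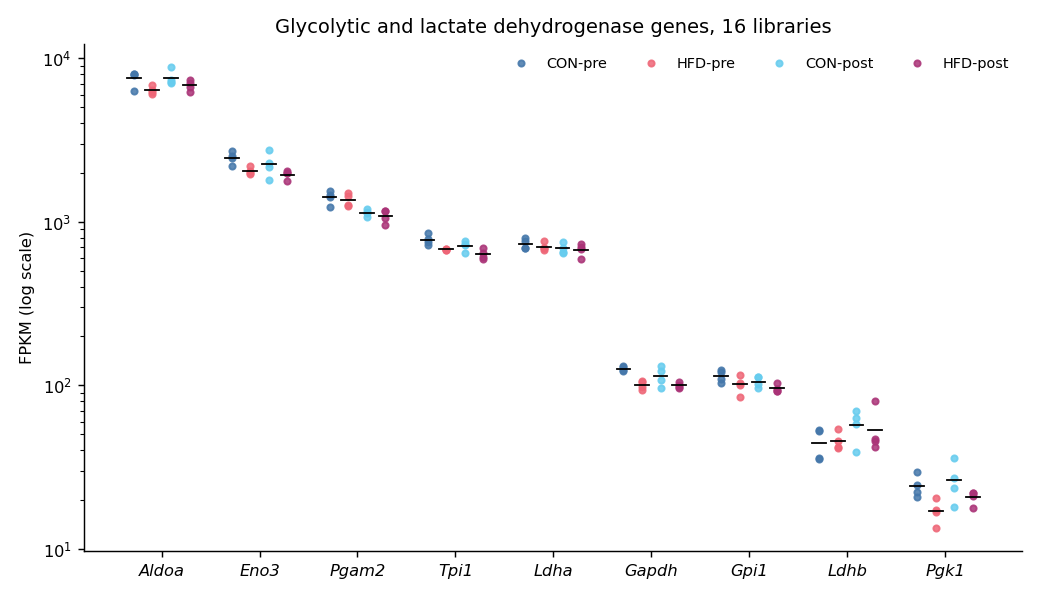
FPKM of the 9 genes in the 16 libraries on a log axis, with genes ordered by mean level. Each point is a library, colours mark the 4 groups and black lines are group means. Aldoa leads with a mean of 7080 FPKM and Pgk1 is lowest at 22.0 FPKM.

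Gpi1 (glucose phosphate isomerase, chromosome 7, chr7:34201327-34230336 on the minus strand of GRCm38.p6) links the hexokinase product to the fructose phosphates. Its FPKM in CON-pre replicates 1 to 4 were 119.8, 124, 110.0 and 104, and in HFD-pre replicates 104, 115, 101 and 84.5. In CON-post they were 113, 101, 96.1 and 112, and in HFD-post 92.1, 91.8, 95.4 and 104. The groups overlapped in every comparison. The diet difference averaged over rest and exercise was -0.16 on the log2(FPKM + 0.5) scale, the scale of all fold changes here (SE 0.06, adjusted p = 0.361 by limma).

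Aldoa (chr7:126795234-126800994, minus strand, GRCm38.p6) encodes the aldolase of muscle. In CON-pre the values were 7881, 6330.2, 7954 and 7999 FPKM, and in HFD-pre 6835, 6017, 6176 and 6389 FPKM. Replicate 2 of CON-pre stood apart from the other 3 and lay inside the HFD-pre range. CON-post had 7064, 8837, 7398 and 7116 FPKM and HFD-post 6245, 7328, 6663 and 7047 FPKM, again with overlap. The averaged diet difference was -0.20 (SE 0.06, limma adjusted p = 0.216), or -0.064 under quantile normalization, and the averaged exercise difference 0.057 (SE 0.06, limma adjusted p = 0.694).

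Tpi1 (chr6:124810586-124814158, minus strand, GRCm38.p6), the triose phosphate isomerase, had the smallest coefficient of variation within groups. CON-pre held 779, 755, 852 and 725 FPKM, and HFD-pre held 681, 671, 672 and 686 FPKM, so every resting high-fat library was below every resting control library. After exercise CON-post had 728, 763, 723 and 644 FPKM and HFD-post 594, 610.3, 639.8 and 693 FPKM, with overlap. Tpi1 was lower by 0.20 in HFD-pre than CON-pre, and this difference of -0.20 (SE 0.07) had an adjusted p of 0.402 by limma and a p of 0.0286 by an exact permutation test, two-sided, the smallest that 4 libraries against 4 can give. Averaged over both states the diet difference was -0.18 (SE 0.05, limma adjusted p = 0.0939). It passed the threshold in 2 alternatives, with the slow-fibre score as a covariate (adjusted p = 0.0393) and without CON-post replicate 4 (adjusted p = 0.0465).

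Gapdh (chr6:125161852-125166467, minus strand, GRCm38.p6) encodes the dehydrogenase that makes NADH, and is often used as a reference gene for normalization. Its CON-pre values were 130.5, 122, 129 and 124 FPKM and its HFD-pre values 106, 98.2, 104 and 94.1 FPKM. The resting groups did not overlap, with a gap between 106 and 122 FPKM. CON-post spread widely, at 122, 131, 96.5 and 107 FPKM, while HFD-post stayed at 105, 97.3, 96.1 and 101 FPKM. Its 2 lower CON-post libraries, replicates 3 and 4, lay close to or inside the HFD-post range. The diet difference at rest was -0.33 (SE 0.08), with an adjusted p of 0.127 by limma and a p of 0.0286 by the exact permutation test, two-sided. After exercise it was -0.18 (SE 0.08, limma adjusted p = 0.738). Averaged over both states Gapdh fell by 16.2% on the high-fat diet, a log2 difference of -0.26 (SE 0.06, limma adjusted p = 0.0427). This call held in 9 of 28 alternatives, with adjusted p-values from 0.00767 to 0.101 over all of them, and it was lost under each of the 3 other scalings of the libraries. Among the 9 is the sum of Gapdh with its copy Gm12070, given below, which does not test Gapdh alone. The direction was lower in all 28.

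The level of Gapdh is uncertain because the mouse genome holds many copies of it. A search of its 1002 coding bases against the mm9 genome (NCBIM37), the build named for the alignment, found 68 copies elsewhere that covered at least 80% of it at an identity of at least 95%, and 37 of these had at least 98% identity. The pseudogene Gm12070 on chromosome 11 (chr11:26686627-26687816, NCBIM37) differs from the Gapdh coding sequence at 1 base, G361A, counted from 1 at the first coding base, with the Gapdh base first. Both sequences are shown from coding base 331 to 390 to let this single difference be seen, with the differing base in capitals. In NCBIM37 the Gapdh stretch lies in a coding exon at chr6:125112990-125113049 on the minus strand and the Gm12070 stretch at chr11:26686963-26687022 on the plus strand.
Gapdh: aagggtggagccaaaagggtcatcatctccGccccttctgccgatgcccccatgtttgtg
Gm12070: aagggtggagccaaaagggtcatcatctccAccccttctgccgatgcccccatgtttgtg

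A read inside the coding sequence that does not cover this base has no base by which to choose between them. In the table Gm12070 was listed at a mean of 102 FPKM, between 81.9 and 133 FPKM, close to the 110.2 FPKM of Gapdh, and its averaged diet difference was -0.31 (SE 0.07, limma adjusted p = 0.0307). When the values of Gapdh and Gm12070 were summed, an alternative chosen after the data were seen, CON-pre had 244 ± 14.8 FPKM and HFD-pre 194 ± 10.1 FPKM (SD, n = 4). The sum had an averaged diet difference of -0.28 (SE 0.06, limma adjusted p = 0.0264). The part of the copies in the level of Gapdh was not tested.

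Pgk1 (chrX:106187100-106203699, plus strand, GRCm38.p6), the phosphoglycerate kinase found in most tissues, had the lowest level and a wide spread. CON-pre had 22.3, 20.6, 29.4 and 24.4 FPKM and HFD-pre 17.4, 13.4, 16.7 and 20.5 FPKM. The resting groups did not overlap, although the highest HFD-pre value of 20.5 and the lowest CON-pre value of 20.6 FPKM nearly touched. CON-post had 27.3, 35.7, 23.7 and 18.1 FPKM and HFD-post 21.9, 21.0, 21.9 and 17.7 FPKM. The diet difference at rest was -0.50 (SE 0.17), with an adjusted p of 0.392 by limma and a p of 0.0286 by the exact permutation test, two-sided. Averaged over both states it was -0.40 (SE 0.12, limma adjusted p = 0.174), the largest diet difference among the members. It passed the threshold only without CON-post replicate 4 (adjusted p = 0.0457). Pgk1 had 2 near-full copies elsewhere in NCBIM37, at up to 100% identity, so its level is uncertain too.

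Pgam2 (chr11:5801637-5803796, minus strand, GRCm38.p6), the muscle phosphoglycerate mutase, was the member that changed after exercise. CON-pre had 1467, 1413, 1552 and 1225 FPKM and HFD-pre 1441, 1499.5, 1253 and 1259 FPKM. CON-post had 1077, 1205, 1123 and 1148 FPKM and HFD-post 955, 1053, 1157 and 1160.0 FPKM. Every exercised library was below every resting library, with 1205 FPKM the highest after exercise and 1225 FPKM the lowest at rest. Of all genes tested, 0.151% were lower in this way in all 8 exercised than in all 8 resting libraries.

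On control diet Pgam2 differed by -0.31 (SE 0.09) after exercise, with an adjusted p of 0.116 by limma and a p of 0.0286 by the exact permutation test, two-sided. On high-fat diet it differed by -0.33 (SE 0.09), with an adjusted p of 0.126 by limma and a p of 0.0286 by the same exact test. Each diet taken alone thus missed the threshold after adjustment over all genes, and the mean of the diets passed it at -0.32 (SE 0.06, 95% interval -0.45 to -0.19, limma adjusted p = 0.00682). The interaction, the difference between these responses, was -0.025 (SE 0.12, limma adjusted p = 1.00). The averaged change passed in all 28 alternatives, with differences from -0.37 to -0.29 and adjusted p-values from 0.00198 to 0.0411. The sum of Gapdh with Gm12070, counted among them, left the values of Pgam2 unchanged. Pgam2 did not pass a test of diet, with an averaged difference of -0.065 (SE 0.06, 95% interval -0.19 to 0.065) that had the opposite sign under quantile normalization. Pgam2 held between 99.7% and 99.9% of the summed mutase FPKM (Pgam1 and Pgam2), and Pgam1, the form of other tissues, was near 2.43 FPKM. Pgam1 was called in no comparison by limma, although its resting groups separated by diet (-0.25, limma adjusted p = 0.653, and p = 0.0286 by the exact permutation test, two-sided). Pgam2 had no near copy elsewhere in the genome by the same search.

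**Figure D2:**
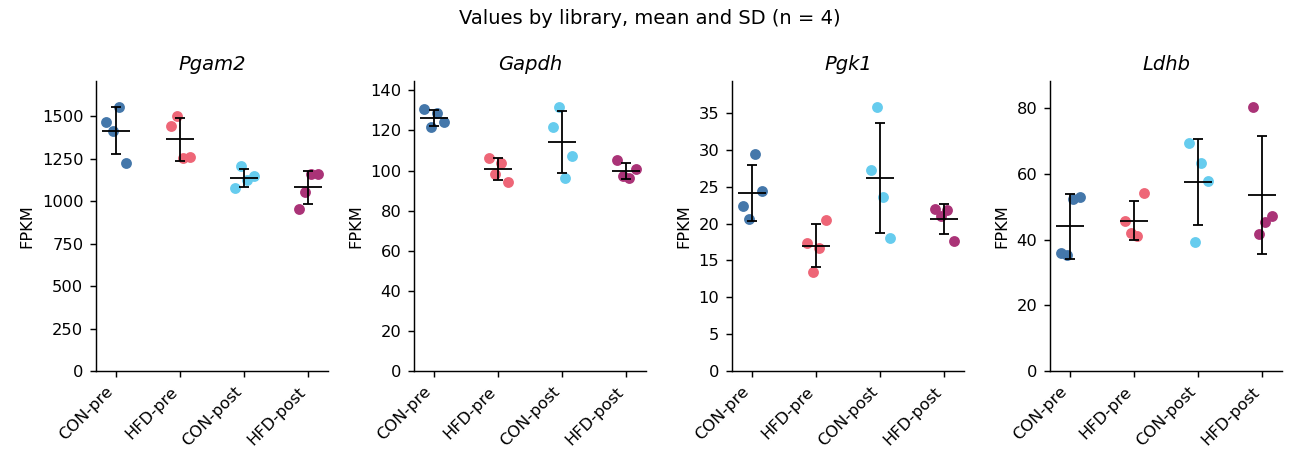
FPKM of Pgam2, Gapdh, Pgk1 and Ldhb in each library, by group, with axes from 0. Points are libraries in replicate order, and black bars are the mean and SD of 4. For Pgam2 the 8 exercised libraries, at most 1205 FPKM, lie below the 8 resting ones, at least 1225 FPKM. For Gapdh and Pgk1 the resting groups separate by diet, and for Ldhb 1 HFD-post library stands at 80.2 FPKM.

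The 250 bases before the transcript start of Pgam2 are shown because it is the member whose RNA changed after exercise. RefSeq places them at chr11:5803797-5804046 of GRCm38.p6, read on the minus strand. Capitals mark the only match to the MEF2 consensus, the site of a family of muscle transcription factors, whose first base lies 80 bases before the start.
Pgam2: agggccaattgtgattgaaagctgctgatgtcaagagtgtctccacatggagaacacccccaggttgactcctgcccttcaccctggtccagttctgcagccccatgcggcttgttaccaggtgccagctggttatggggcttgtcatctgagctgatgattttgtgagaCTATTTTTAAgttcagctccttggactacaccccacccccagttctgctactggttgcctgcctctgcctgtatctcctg

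This consensus was found in 2.92% of all 32851 RefSeq windows of the same length and in the windows of 1 of 9 members. For contrast the window of Pgk1 (chrX:106186850-106187099, plus strand, GRCm38.p6) is shown with the letters ACGTG, the core of the hypoxia-inducible factor site, in capitals on either strand (CACGT on the other).
Pgk1: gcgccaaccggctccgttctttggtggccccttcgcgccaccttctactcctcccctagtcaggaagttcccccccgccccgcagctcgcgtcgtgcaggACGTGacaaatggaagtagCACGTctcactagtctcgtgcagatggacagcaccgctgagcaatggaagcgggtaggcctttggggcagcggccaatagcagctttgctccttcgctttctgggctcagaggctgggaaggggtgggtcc

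The letters ACGTG stood in windows of 3 members, Ldha, Aldoa and Pgk1, and in 16.6% of all windows. The palindrome CACGTG, which holds ACGTG on both strands, was in a window of Ldha alone among members and in 6.02% of all windows. CAGCTG, an E-box used by muscle factors, was in windows of Gpi1 and Pgam2 (13.0% of all windows), and GGGCGG, an Sp1 box, in windows of 5 members (32.7%). TATAAA was in no member window and in 12.4% of all windows. Both strands were searched in each case, and a match is a description of letters, not of a bound site.

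Eno3 (chr11:70653125-70662513, plus strand, GRCm38.p6) is the muscle enolase. CON-pre had 2439.7, 2193, 2712 and 2529 FPKM and HFD-pre 2057, 1984, 1949 and 2192 FPKM. The resting groups separated by little, 2193 against 2192 FPKM at the edge. CON-post held 2156, 2732, 2299 and 1804 FPKM and HFD-post 1766, 1983, 2048 and 1980.3 FPKM. The resting diet difference was -0.27 (SE 0.10), with an adjusted p of 0.455 by limma and a p of 0.0286 by the exact permutation test, two-sided. The averaged diet difference was -0.23 (SE 0.07, limma adjusted p = 0.194), or -0.079 under quantile normalization, and it passed the threshold only without CON-post replicate 4 (adjusted p = 0.0465).

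Ldha (chr7:46842274-46855627, plus strand, GRCm38.p6), which encodes the A subunit of lactate dehydrogenase, had the smallest ratio of highest to lowest value among the members, 1.335. Its CON-pre values were 763, 687, 792 and 687 FPKM and its HFD-pre values 758, 687, 673 and 691 FPKM. CON-post had 644, 755, 693 and 654 FPKM and HFD-post 593, 684, 728 and 697 FPKM. All 4 groups overlapped. The averaged diet difference was -0.042 (95% interval -0.16 to 0.073, limma adjusted p = 0.865), with the opposite sign under quantile normalization, and the averaged exercise difference was -0.076 (95% interval -0.19 to 0.039, limma adjusted p = 0.489). These intervals leave room for shifts of about the size seen in Gpi1. Ldha had 2 near-full copies elsewhere in NCBIM37, at up to 96% identity.

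Ldhb (chr6:142490249-142507957, minus strand, GRCm38.p6), the B subunit, varied most between libraries of a group. CON-pre had 35.8, 35.4, 52.3 and 52.9 FPKM and HFD-pre 45.6, 42.2, 41.2 and 54.1 FPKM. CON-post had 69.3, 39.2, 63.4 and 57.7 FPKM and HFD-post 80.2, 41.7, 45.4 and 47.1 FPKM. In CON-post 3 libraries were above all resting libraries and replicate 2 was not, while in HFD-post only replicate 1 was. The averaged exercise difference was 0.28 (SE 0.15, limma adjusted p = 0.332), which did not pass. It was 0.17 without HFD-post replicate 1. Ldhb had 1 near-full copy elsewhere in NCBIM37, at 98.01% identity.

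As a share of the summed FPKM of Ldha and Ldhb, Ldhb made up 5.68% ± 1.22 in CON-pre, 6.12% ± 0.762 in HFD-pre, 7.79% ± 2.03 in CON-post and 7.47% ± 2.97 in HFD-post (SD, n = 4). The B share was therefore a small part of the total in every library, between 4.48% and 11.9%. The share was set beside a slow-fibre score, the mean centred log2 value of 9 slow-fibre genes. The score was 0.89 in HFD-post replicate 1, where the share was 11.9%, and -0.91 in CON-post replicate 2, where the share was 4.93%. In CON-post replicate 1 the score was 0.80 and the share 9.73%, and in CON-pre replicate 1 they were -0.82 and 4.48%. In CON-pre the shares followed the order of the scores in all 4 libraries, and in HFD-pre, CON-post and HFD-post they did not. The lowest score of all, -0.93 in HFD-pre replicate 1, went with a share of 5.68%. Within HFD-pre the highest share, 7.26%, was at a score of -0.20 and the highest score, 0.35, at a share of 5.77%. HFD-post replicate 4 had a score of -0.89 and a share of 6.33%. The slow-fibre genes summed to between 199.6 and 780.2 FPKM, with overlap of all 4 groups. With the score as a covariate, the averaged exercise difference of Ldhb was 0.23 in place of 0.28 and its averaged diet difference 0.11 in place of -0.023, and neither passed.

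**Figure D3:**
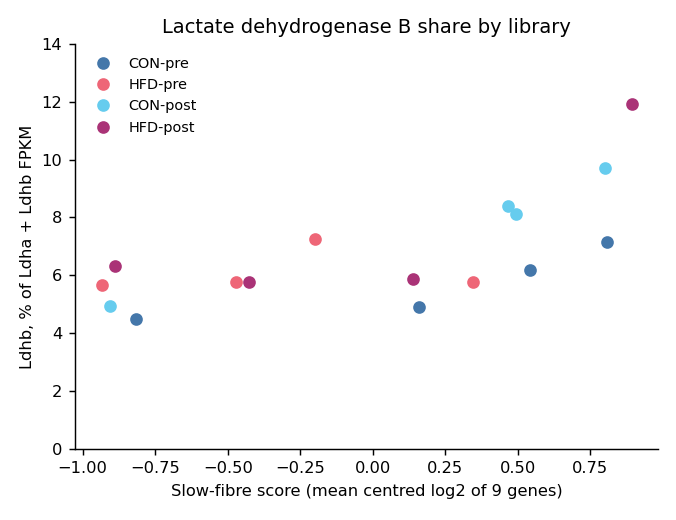
Share of Ldhb in the summed FPKM of Ldha and Ldhb in each library (vertical axis, percent) against the slow-fibre score (horizontal axis, mean centred log2 of 9 genes). Points are libraries, coloured by group. The highest share, 11.9%, is in the HFD-post library with the score of 0.89.

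As a group, the members were compared with all genes tested. In HFD-pre against CON-pre, 8 of 9 members had lower and 1 higher fitted values, where 60.3% of all genes were lower. After adjustment 0 passed (0.346% of all genes passed), and 5 of 9 were lower at an unadjusted p under 0.05, against 5.76% of all genes. Among them 4 (Tpi1, Gapdh, Pgk1 and Eno3) were lower with no overlap of groups, as were 3.94% of all genes. The median log2 difference was -0.20 for the members and -0.034 for all genes.

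In HFD-post against CON-post, 9 of 9 members had lower fitted values, as did 48.7% of all genes. After adjustment 0 passed (0.151% of all genes). At an unadjusted p under 0.05, 2 were lower (Tpi1 and Gapdh, against 3.17% of all genes), and 0 separated (1.28%). The median was -0.15, against 0.0038 for all genes. These comparisons share no libraries. In the diet difference averaged over them, 1 of 9 members passed, lower, against 0.471% of all genes, and 6 were lower at an unadjusted p under 0.05, against 6.54% of all genes. The median was -0.18, against -0.017 for all genes, and under quantile normalization it was -0.079.

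In CON-post against CON-pre, 6 of 9 members had lower fitted values and 3 higher, where 51.6% of all genes were lower. After adjustment 0 passed (1.11% of all genes), and Pgam2 alone was lower with no overlap (2.53% of all genes). The median was -0.12, against -0.0058 for all genes. In HFD-post against HFD-pre the counts were again 6 lower and 3 higher, where 40.7% of all genes were lower. Here 0 were called (0.542% of all genes), and Pgam2 alone separated (2.1% of all genes). The median was -0.059, against 0.035 for all genes. These comparisons share their resting libraries with the diet comparison at rest. In the exercise difference averaged over diets, 1 of 9 members passed, lower, against 0.915% of all genes, and Pgam2 and Tpi1 were lower at an unadjusted p under 0.05, against 6.8% of all genes. The median was -0.082, against 0.014 for all genes.

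In the interaction of diet and exercise, 0 of 9 members passed by limma, as did 0% of all genes tested, while 0 members and 356 genes (3.16%) had an unadjusted p under 0.05.

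**Figure D4:**
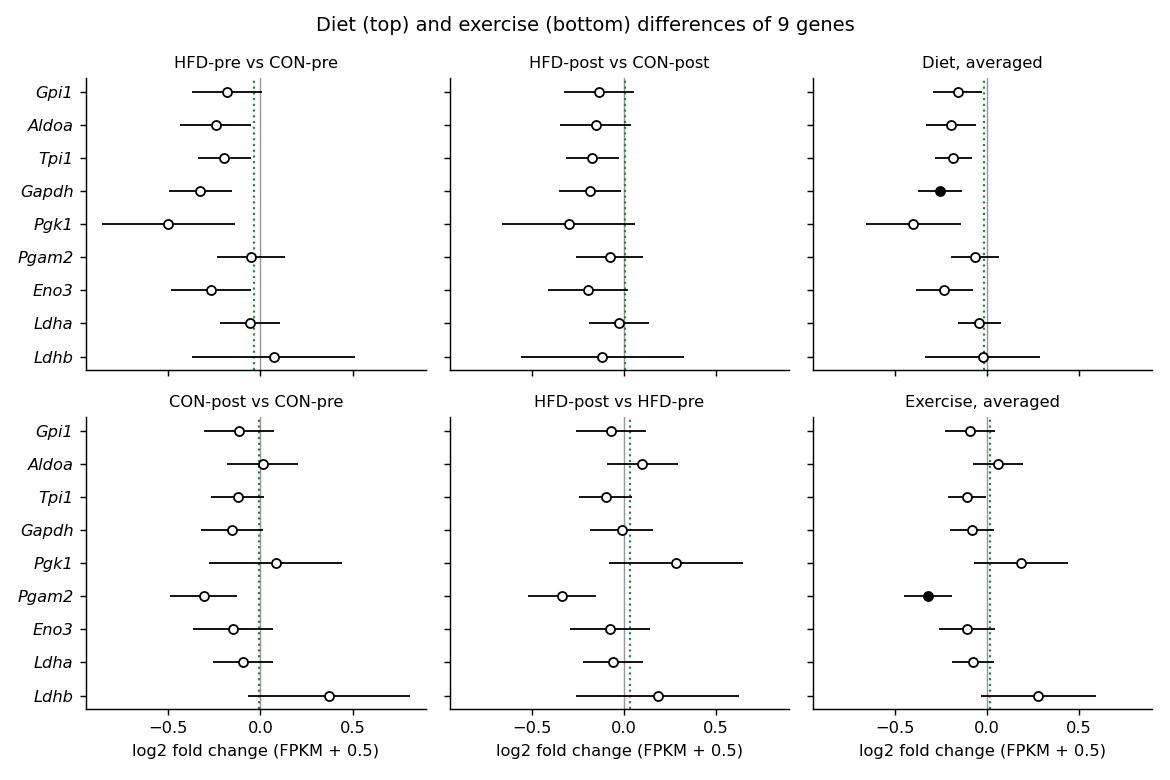
Fitted log2 differences of the 9 genes with 95% intervals, for diet (top row) and exercise (bottom row). Filled points passed at an adjusted p under 0.05, namely Gapdh for averaged diet at -0.26 and Pgam2 for averaged exercise at -0.32. The dotted line is the median of all genes tested, from -0.034 to 0.035.

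How far the diet differences depended on the scaling of the libraries is seen in the plot of averaged differences under 4 scalings. Aldoa and Eno3, the members with the highest levels, moved most. Under quantile normalization the averaged diet difference of Aldoa was -0.064 in place of -0.20, and that of Eno3 was -0.079 in place of -0.23. Gapdh and Pgk1 moved little, to -0.25 and -0.39. The averaged exercise difference of Pgam2 was between -0.37 and -0.32 under the 4 scalings.

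**Figure D5:**
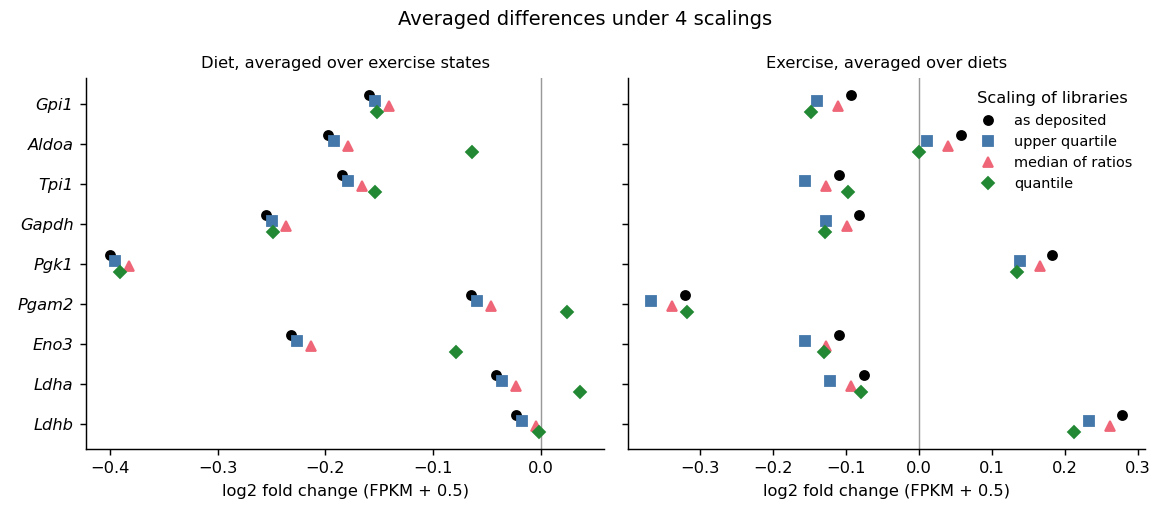
Averaged log2 differences of the 9 genes for diet (left) and exercise (right), with libraries as deposited or scaled by upper quartile, median of ratios or quantile normalization. Aldoa and Eno3 shift toward 0 for diet under quantile normalization, to -0.064 and -0.079, while Pgam2 stays between -0.37 and -0.32 for exercise.

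Genes of neighbouring steps showed the surroundings of these enzymes. Pkm, the muscle pyruvate kinase that follows enolase, had averaged differences of -0.16 for diet (limma adjusted p = 0.186) and -0.12 for exercise (limma adjusted p = 0.208). At rest Pkm separated by diet (-0.20, limma adjusted p = 0.409, and p = 0.0286 by the exact permutation test, two-sided). In upper glycolysis, 2 of 11 tested genes rose after exercise when averaged over diets and 1 fell, where 2.95% of all genes tested rose and 0.915% fell. Hk2, the hexokinase of muscle, rose by 1.10 (SE 0.08, limma adjusted p = 1.06e-06), from 52.9 FPKM in CON-pre to 111 in CON-post and from 48.6 in HFD-pre to 109 in HFD-post. Pfkfb4 rose by 0.32 and Pfkfb3 fell by 0.95, both encoding enzymes that set the level of an activator of phosphofructokinase. On the high-fat diet, 1 of these 11 rose, as did 0.489% of all genes, namely Fbp2, the muscle fructose bisphosphatase, by 0.40 (limma adjusted p = 0.0431). Pfkm, the muscle phosphofructokinase, passed neither test.

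Of 6 tested genes of pyruvate kinase and side branches, 0 passed after adjustment by limma for averaged exercise or averaged diet. Of these 6, 4 were lower at an unadjusted p under 0.05 for averaged exercise (6.8% of all genes) and 2 for averaged diet (6.54% of all genes). At the same threshold 1, Pgp, was higher for averaged exercise (0.57; 11.7% of all genes) and 1, Bpgm, for averaged diet (0.18; 3.89% of all genes). Of 11 genes of glucose entry and glycogen, 0 passed for exercise, and 1, the phosphoglucomutase gene Pgm2, was lower on the high-fat diet by limma (0.471% of all genes), at -0.23 (adjusted p = 0.0492). Of these 11, 9 had lower averaged values on the high-fat diet (56.6% of all genes), 4 of them at an unadjusted p under 0.05 (6.54% of all genes). Of 13 genes of lactate and pyruvate handling, 1 rose after exercise (2.95% of all genes), Pdk4, a kinase that inhibits pyruvate dehydrogenase, by 0.91 (limma adjusted p = 0.002). Its mean went from 206.7 FPKM in CON-pre to 517.9 in CON-post, a rise of 1.38 (limma adjusted p = 0.0021), and from 315.9 in HFD-pre to 432.7 in HFD-post, a difference of 0.44 that did not pass. The interaction of diet and exercise for Pdk4 was -0.94 and did not pass after adjustment, though it was the 1 of these 13 at an unadjusted p under 0.05 by limma (3.16% of all genes). On the high-fat diet 1 of these 13 fell (0.471% of all genes), Pcx, which encodes pyruvate carboxylase, and it fell by 0.52 (limma adjusted p = 0.00102). Of 6 genes of the NADH shuttles, 0 passed either test, and of 3 tested isozymes of the members (Pgam1 and Eno1b among them) 0 passed.

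Among 14 genes of transcription factors and coactivators known to act on glycolytic genes, 3 rose after exercise in the averaged test and 2 fell, against 2.95% and 0.915% of all genes tested. Ppargc1a, a coactivator of mitochondrial genes, rose by 2.04, Myc by 0.80 and Epas1, a hypoxia-inducible factor, by 0.22. Six4, a homeobox factor of fast fibres, fell by 0.32 and Mef2c, a MEF2 factor, fell by 0.20 (limma adjusted p = 0.0199). On the high-fat diet 1 of 14 rose (0.489% of all genes), Epas1, by 0.27 (limma adjusted p = 0.0238).

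Fast fibres are rich in glycolytic enzymes, so their genes are given beside the members. Of 12 fast-fibre genes, 11 had lower averaged values on the high-fat diet with a median of -0.16, where 56.6% of all genes were lower. At an unadjusted p under 0.05, 7 were lower (6.54% of all genes), and 0 passed after adjustment by limma. Their summed FPKM was between 75740 and 84430 in CON-pre and between 66970 and 74490 in HFD-pre, with no overlap. CON-post, between 68480 and 75180, did not overlap CON-pre either. For averaged exercise 8 of 12 were lower (46.3% of all genes), 5 at an unadjusted p under 0.05 (6.8% of all genes). After adjustment 2 fell (0.915% of all genes), Myl1 by 0.31 and Casq1, the calsequestrin of fast fibres, by 0.32 (limma adjusted p = 0.00546). The skeletal muscle markers, some of them fast-fibre genes, also separated by diet at rest, between 54510 and 58230 FPKM in CON-pre and between 47580 and 52240 FPKM in HFD-pre. Slow-fibre genes were lower in 8 of 9 for diet and higher in 9 of 9 for exercise, with 0 passing either. The part of fibre make-up in the values of the members was not tested. In a fit with the slow-fibre score as a covariate, Pgam2 kept its exercise call and Gapdh its diet call. That score holds no fast-fibre gene, so this fit cannot show the part of fast-fibre RNA. Adipocyte markers summed to between 322 and 660 FPKM, blood markers to between 259.6 and 905 FPKM and macrophage markers to between 64.7 and 188.5 FPKM, each with overlap of the groups. All 8 tested macrophage markers were lower for averaged diet (56.6% of all genes), with a median of -0.22 and 0 at an unadjusted p under 0.05, which is the direction of the members. At rest all 8 were lower by diet (60.3% of all genes), with a median of -0.25. Their part in the values of the members was not tested. Fibroblast and nerve markers overlapped as well, whereas endothelial markers were between 44.7 and 55.8 FPKM in CON-pre and between 56.5 and 61.7 FPKM in HFD-post. Among these marker genes, Des (0.23) and Pecam1 (0.36) rose after exercise in the averaged test. On the high-fat diet the adipokine gene Lep (2.54) rose, and Cfd (-1.77) and Adrb3 (-0.73) fell. In a wider list of 12 oxidative and slow-fibre genes, 8 were lower for averaged diet, with a median of -0.39, and 0 of them fell by limma, while 1, the fatty acid binding protein gene Fabp3, rose by 1.22 (0.489% of all genes rose).

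The genes whose values across the 16 libraries were most like those of each member were named by Pearson's r of log2(FPKM + 0.5) among genes whose mean reached 5 FPKM, as a description. Pgam2 was closest to Sypl2 (r = 0.937), a protein of the triad membranes, Casq1 (r = 0.934) and Smyd1 (r = 0.927), a methyltransferase of the sarcomere. Within groups, after the group means were removed, these were 0.798, 0.784 and 0.880. Aldoa was closest to Pfkm (r = 0.933), Ap2a2 and Ninj1, and Eno3 to Acta1 (r = 0.905), Pvalb and Cbr2. Tpi1 was closest to Ak1 (r = 0.857), Pfkfb3 and Parp3, Gpi1 to Tuba8 (r = 0.853), Ywhae and Ccnk, and Ldha to Uspl1 (r = 0.890), Pdia4 and Golga2. Gapdh was closest to its copy Gm12070 (r = 0.919), then to Pcx and Cd24a. Pgk1 was closest to Gm15421 (r = 0.886), Prss23 and Psmd6. Ldhb was closest to Nnt (r = 0.906), Suclg2 and Pla2g12a, of which Nnt and Suclg2 encode mitochondrial enzymes. Within groups the correlations of the 27 nearest genes ran from 0.438, for Gapdh with Pcx, to 0.908. Those of Tpi1 with Ak1 and Pfkfb3 were 0.658 and 0.619. All genes of a library share its scaling and its fibre make-up.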

How the data were processed

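RNA sequencing of quadriceps from 16 mice, 4 in each of 4 groups, was analysed from 1 expression table that the authors deposited. The deposited values are FPKM, which the authors estimated with Cufflinks after aligning stranded mRNA reads with TopHat to mm9, per the methods and labels. FPKM carry a scaling for gene length and sequencing depth, so no count model was used. The methods give only an approximate number of reads per sample, so the depth of each library is unknown. A relative depth was read from the low values. Of 24487 entries, 27 with names turned into dates were left out and 260 symbols in several entries were summed. The 11256 genes whose mean reached 0.5 FPKM were tested on log2(FPKM + 0.5) with limma 3.58.1 in R 4.3.3, in 1 model of the 4 groups that used the trend of variance on mean, adjusted by Benjamini-Hochberg over all genes tested. A gene was called at an adjusted p under 0.05. Such fold changes understate the change of low genes. Single genes were also compared by exact permutation tests, two-sided, on 4 against 4 libraries, where the smallest p is 0.0286. The labels do not say how animals were kept together, so p-values measure the spread between these 16 samples.

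The 9 genes and all lists were chosen with earlier results of these data known. The named genes are these 9, list members called or at a neighbouring step, and the 3 genes most like each of the 9. Copies were sought with blastn 2.17.0 in NCBIM37 (at least 95% identity over at least 300 bases), a search chosen after the data were seen. Positions and promoters are from RefSeq GRCm38.p6, in which all 9 symbols matched. Those of Gapdh copies and of the Gapdh stretch shown beside Gm12070 are from NCBIM37. The code was tested on simulated data. Alternatives were other pseudocounts, filters, scalings, weights and covariates, a replicate block, the omission of each library and the sum of Gapdh with Gm12070.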

Additional observations from a re-analysis of the deposited data

Results flagged for a closer look

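Among 36 sets of 4 libraries (9 genes in 4 groups), 2 held a library far from the other 3 by Dixon's criterion, about as many as chance gives at 1 in 20. Aldoa was 6330.2 FPKM in CON-pre replicate 2, against 7881 to 7999 FPKM in the other CON-pre libraries. Ldhb was 80.2 FPKM in HFD-post replicate 1, against 41.7 to 47.1 FPKM in the other HFD-post libraries, and that library also had the highest slow-fibre score, 0.89.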

How the results depend on the processing

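The fall of Pgam2 after exercise passed in all 28 alternatives of the averaged test, of which the sum of Gapdh with Gm12070 left its values unchanged. The count of members called for averaged diet, 1 as reported, was 0 without a filter on low values, with upper-quartile scaling, median-of-ratios scaling or quantile normalization, and without the mean-variance trend, and 2 with the slow-fibre score as a covariate (Gapdh and Tpi1). Leaving out 1 library gave between 0 and 4, where 4 (Gapdh, Tpi1, Pgk1 and Eno3) came without CON-post replicate 4. The count for CON-post against CON-pre was 0 as reported and between 0 and 1 with a library left out, where Pgam2 passed without CON-pre replicate 4 (limma adjusted p = 0.0366). Quantile normalization moved the median of the members to -0.096 for HFD-pre against CON-pre and to -0.079 for averaged diet. No called result reversed.

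Replicate numbers are shared between groups, and 5 of 24 same-numbered pairs had deviations correlated above 0.1. For CON-pre with HFD-pre these were replicates 1 and 2 (0.213 and 0.136). For CON-post with HFD-post they were also replicates 1 and 2 (0.117 and 0.205), and for HFD-pre with HFD-post replicate 3 (0.120). Whether samples were paired across diets is not settled by this check, and the main fit used no pairing. With the replicate block, the count for averaged diet was 0 (Gapdh, limma adjusted p = 0.0608) and Pgam2 kept its exercise call (adjusted p = 0.0181).

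Over all genes, calls ranged from 246 to 591 around 435 for averaged exercise, 76 to 197 around 108 for averaged diet, 21 to 64 around 39 for HFD-pre against CON-pre, 72 to 187 around 125 for CON-post against CON-pre, 21 to 76 around 61 for HFD-post against HFD-pre and 2 to 33 around 17 for HFD-post against CON-post. The averaged exercise calls split into 332 higher and 103 lower as deposited, into 262 and 275 under upper-quartile scaling and into 289 and 244 under quantile normalization. Scaling moved the median of all genes by at most 0.055 on the log2 scale. FPKM hold no depth, so counting error could not be given.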
